A study of Mus musculus with 8 samples.

Results

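Cajal-Retzius nuclei were identified among single nuclei of the mouse hippocampus by their own transcript counts. A nucleus was counted when it held at least 2 unique molecular identifiers (UMIs, each standing for 1 captured transcript) of Trp73, Lhx1 and Lhx5 together, at least 5 of Reln and at most 2 of Gad1 and Gad2 together. The rule found 199 of the 32041 nuclei kept by the study's filter (a mitochondrial share of UMIs of 5% or less, 200 to 7500 genes detected), a share of 0.621% (exact 95% binomial interval 0.538% to 0.713%, for counting error only). Because the nuclei were chosen by the measured UMIs of these 6 genes, their levels are given below as a description and were not tested between classes of nuclei.

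The nuclei came from 8 mice, with 1 10X Genomics library per mouse. The WT and the GKO group had 3 mice each, aged 7 mo. J20;WT and J20;GKO had 1 mouse each, aged 6 mo. All were labelled as strain C57BL/6, which the study's methods give as a C57BL/6N background, and both sexes were used. GKO mice (GSAP -/-) lacked loxP-flanked exons of Gsap, the gene of γ-secretase activating protein, in all tissues after a cross with CMV-Cre mice. J20 mice carried human APP with the Swedish and Indiana mutations under the PDGF-β promoter, so that the transgene is expressed mainly in neurons. The labels do not say whether hippocampi were pooled. After the filter, the libraries held 21020159 to 43310978 UMIs, with a median of 4579 to 6438.5 per nucleus. By the dates the deposited data carry, the WT and GKO mice numbered 1 stand apart from the other WT and GKO mice, and J20;WT from J20;GKO. What the dates mark is not given in the sources used here. Among kept nuclei, 134 cell barcodes occurred in more than 1 library, and 0 of these barcodes belonged to Cajal-Retzius nuclei.

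Cajal-Retzius cells are early-born glutamatergic neurons of the outermost cortical layer, the marginal zone, and of the outer molecular layer around the hippocampal fissure. They arise largely from the cortical hem, the septum and neighbouring borders of the pallium, migrate under the meninges, and secrete Reelin, the product of Reln, which binds the receptors encoded by Vldlr and Lrp8 on other neurons and acts through the adaptor Dab1 to order cell layers. Most of them die after birth in the neocortex, whereas some persist in the adult hippocampus. Trp73, a relative of the tumour suppressor gene Trp53, and the LIM homeodomain genes Lhx1 and Lhx5 are among their best known markers.

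Within the rule, the values were spread unevenly. Reln had a median of 25 UMIs per nucleus, from 8 to 130, so that 0 nuclei sat at the limit of 5. The sum of Trp73, Lhx1 and Lhx5 had a median of 4, from 2 to 17. Trp73 was detected in 195 nuclei (98.0%), Lhx1 in 94 (47.2%) and Lhx5 in 73 (36.7%). All 3 genes were detected in 35 nuclei, Trp73 with 1 of the LIM genes in 92, and Trp73 alone in 68. Gad1 and Gad2, the genes of the GABA-synthesizing enzymes, were both at 0 in 183 nuclei, summed to 1 in 15 and to 2 in 1. The 31 nuclei just inside the limit, with a sum of 2 for the 3 factors, had a median of 21 Reln UMIs and of 3294 UMIs in all. The 36 nuclei just outside it, with a sum of 1, had medians of 20 and 2847.5, and 5 of them held at least 3 UMIs of Slc17a7, the vesicular glutamate transporter gene of hippocampal excitatory neurons. Only 2 nuclei missed the rule with 4 UMIs of Reln, and 0 missed it with 3 UMIs of Gad1 and Gad2.

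Cajal-Retzius nuclei held few UMIs for neurons. Their median per mouse was between 2904 and 3887 UMIs and between 1649 and 2043 genes. In 398 Reln-positive GABAergic nuclei (at least 5 UMIs of Reln and of Gad1 and Gad2 together, at most 1 of the 3 factors), the median per mouse was 11409.5 to 24505 UMIs. In 9318 Slc17a7-positive excitatory nuclei (at least 3 UMIs of Slc17a7, at most 2 of Gad1 and Gad2, at most 1 of the 3 factors) it was 10686 to 15894. The median was lower in Cajal-Retzius nuclei in 8 of 8 mice in both comparisons (2-sided exact sign-flip permutation test within mice, p = 0.0078, the smallest that 8 mice allow). The median share of UMIs from mitochondrially encoded genes was higher in 8 of 8 mice, at 0.348% to 1.14% against 0.193% to 0.581% in the GABAergic and 0.190% to 0.394% in the excitatory nuclei (exact permutation p = 0.0078 for each). All 3 classes were chosen with minimum numbers of UMIs, and the other kept nuclei together had a median of 5221 UMIs. The part of these minimums in the medians was not tested.

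**Figure D1:**
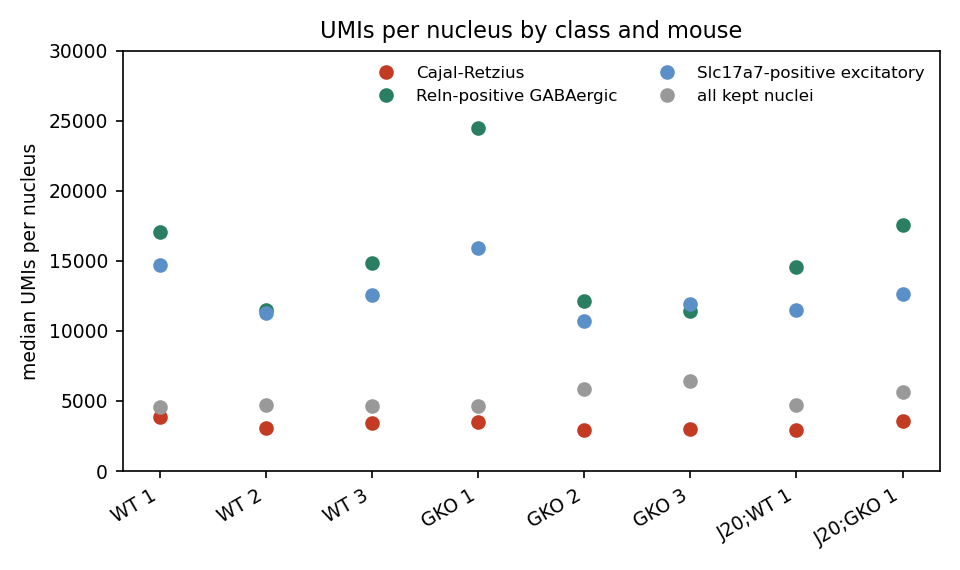
Median UMIs per nucleus (linear axis) by mouse for Cajal-Retzius nuclei, both comparison classes and all kept nuclei; each point is 1 class in 1 mouse. The Cajal-Retzius points lie between 2904 and 3887, under both neuronal classes in each of the 8 mice.

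Some of the 199 nuclei carried transcripts that serve as markers of other cell classes. Slc17a7 was detected in 33 of them (16.6%), and in 16 of the 17 that held over 8000 UMIs. At least 3 UMIs of 12 glial, vascular and choroid plexus markers were present in 56 nuclei (28.1%), against 41.5% of the GABAergic and 58.1% of the excitatory nuclei, which were deeper. These nuclei were most frequent in the first WT mouse (12 of 29) and the first GKO mouse (16 of 31). The summed level of 8 excitatory markers in Cajal-Retzius nuclei ranged from 67.9 to 1131 CPM (counts per mouse and class, scaled to the same total) across mice. Without the 73 nuclei that held any Slc17a7 UMI or 3 other-class UMIs, it ranged from 51.7 to 197.5 CPM, against 1592 to 2088 in the excitatory class. Doublets were not called, and whether these transcripts came from other cells was not tested. The 126 remaining nuclei are called marker-free here, and counts and values in them are given beside several results.

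Markers of further cell types differed in level. The 6 astrocyte markers summed to 271.6 to 641.5 CPM in Cajal-Retzius nuclei, against 364.0 to 744.1 in the excitatory class. In the GABAergic class they summed to 110 to 390.8 CPM. The 6 oligodendrocyte markers summed to 136.9 to 1200 CPM, 6 microglia markers to 74.1 to 240.6 CPM and 5 markers of oligodendrocyte precursors to 24.7 to 160.4 CPM. Of 4 endothelial markers 2 had any UMI, of 6 mural and fibroblast markers 3, and of 5 ependymal markers 1. The interneuron genes Lhx6, Dlx1 and Pvalb were at 0 UMIs in all 199 nuclei. Choroid plexus markers, which are common free RNA in brain preparations, ranged from 5.85 to 720.6 CPM in Cajal-Retzius nuclei and from 12.3 to 1643 CPM in the remaining nuclei.

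The first question was whether loss of GSAP went with a different number of Cajal-Retzius cells. In WT mice, 29 of 5252, 28 of 4605 and 19 of 2953 nuclei belonged to the class, or 0.552%, 0.608% and 0.643%. In GKO mice the counts were 31 of 3713, 39 of 4736 and 28 of 4716, or 0.835%, 0.823% and 0.594%. The GKO share was above every WT share in 2 mice and between the first and the second WT share in the third, so that the groups overlapped. The mean was 0.601% ± 0.0460 (SD, n = 3) in WT and 0.751% ± 0.136 (SD, n = 3) in GKO, a difference of 0.149 percentage points (2-sided exact permutation test over mice, p = 0.3, where 3 against 3 allow no p below 0.1). Within the dates, the difference was 0.283 points between the first mice (1 against 1) and 0.0829 points between the others (2 against 2). The J20;WT library held 13 of 3335 (0.390%, exact 95% interval 0.208% to 0.666%) and the J20;GKO library 12 of 2731 (0.439%, 0.227% to 0.766%). A share of nuclei depends on how nuclei of every other type were recovered, and a change in cell number cannot be told apart from it.

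**Figure D2:**
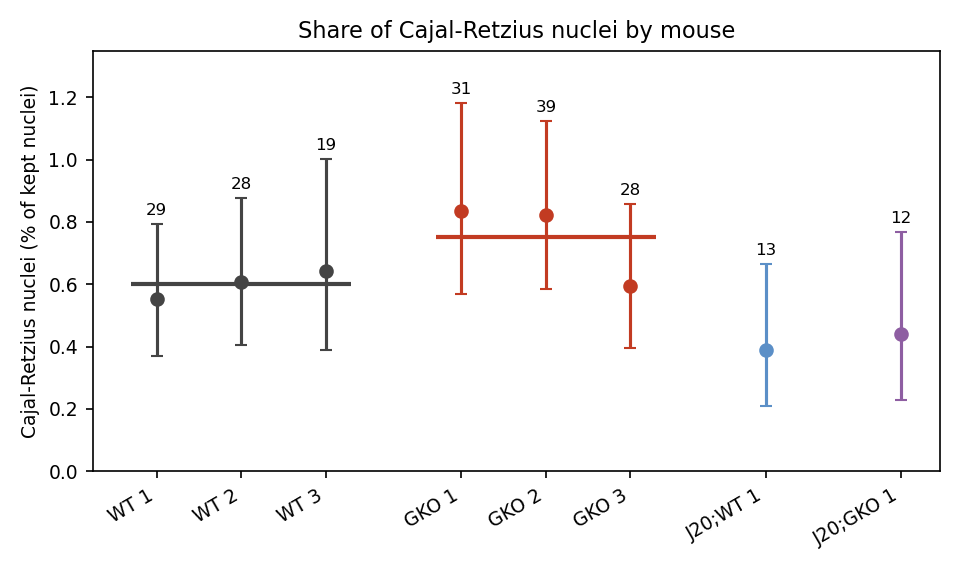
Cajal-Retzius nuclei as a percentage of kept nuclei in each mouse (linear axis from 0). Points are single mice, bars exact 95% binomial intervals, numbers above them the nuclei counted, and horizontal lines the means of 3 WT (0.601%) and 3 GKO mice (0.751%); all intervals of single mice overlap.

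The levels of the genes that chose the nuclei are given next, as CPM of the counts summed per mouse (lowest, median and highest of 8 mice). Reln had 3886, 6752 and 12531 CPM in Cajal-Retzius nuclei, where the first GKO mouse was highest, and 837.4 to 1331 CPM in the Reln-positive GABAergic nuclei. In the excitatory class Reln did not exceed 24.2 CPM. Trp73 had 510.2, 892.8 and 1335 CPM, and at most 3.88 CPM in either comparison class. The ranges of both genes do not overlap between classes, as the rule sets. Lhx1 had 79.9, 194.1 and 345.7 CPM and Lhx5 57.7, 104.5 and 202.1 CPM, and the GABAergic nuclei held 0 UMIs of either. The first WT mouse was lowest for Reln, Trp73, Lhx1 and Lhx5, and it is also the mouse with the largest Cajal-Retzius nucleus, of 33143 UMIs. Of 5729 oligodendrocyte nuclei (at least 5 UMIs of Mog, Mobp and Mag together, with Slc17a7, Gad1 and Gad2 at 0 by choice), 0.803% had a Trp73 UMI, at a median of 2250 UMIs in all.

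**Figure D3:**
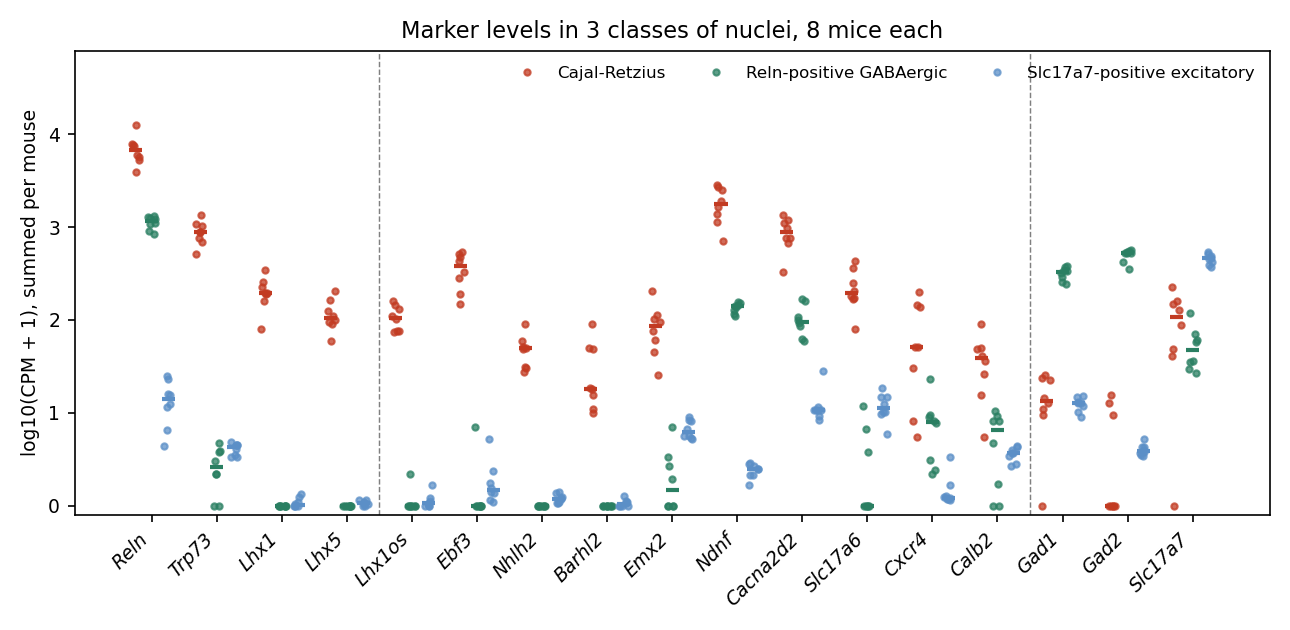
Levels per mouse as log10(CPM + 1) in Cajal-Retzius, Reln-positive GABAergic and Slc17a7-positive excitatory nuclei; each point is 1 mouse and each short line the median of 8. Genes left of the first dashed line and right of the second chose the classes, and in the middle Ebf3, Lhx1os and Ndnf lie above both other classes in every mouse.

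Lhx1os, a long noncoding RNA gene, was not part of the rule and followed Lhx1. It starts 124 bases from Lhx1 on the opposite strand. In GRCm38 (mm10), Lhx1 lies at chr11:84518284-84525535 on the minus strand and Lhx1os at chr11:84525660-84535831 on the plus strand, so that the annotated genes do not overlap. The stretch between both starts, chr11:84525536-84525659, belongs to neither gene and is shown because both genes were detected in the same class. It is taken from RefSeq promoter windows (GRCm38.p6, plus strand), and its capitals mark CCAAT, the 1 match among 5 motifs searched on both strands.
Lhx1 to Lhx1os: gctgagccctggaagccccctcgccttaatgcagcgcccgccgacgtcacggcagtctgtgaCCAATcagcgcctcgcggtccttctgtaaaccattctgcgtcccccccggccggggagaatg
The motifs were the TATA box core TATAAA, the box CCAAT, the Sp1 core GGGCGG, the homeodomain core TAATTA and an early B-cell factor core CCCNNGGGA, where N is any base, and none of them contains another. CCAAT occurs in 37.4% of all 32851 RefSeq windows of 300 bases, so that a match in a promoter is common. Lhx1os had 74.1, 104.6 and 158.4 CPM in Cajal-Retzius nuclei, at most 1.19 CPM in GABAergic and at most 0.685 CPM in excitatory nuclei. It was higher by 7.88 on the log2 scale against the GABAergic class (standard error, SE, 0.41, adjusted p = 7.1e-13) and by 9.16 against the excitatory class (SE 0.35). Lhx1os was detected in 33.7% of Cajal-Retzius nuclei and in 0.0349% of oligodendrocyte nuclei. Both genes are divergent, and the counting strand is not given in the sources used here.

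The second question was which genes set Cajal-Retzius nuclei apart from the other Reelin-producing neurons of the hippocampus and from its excitatory neurons. Counts were summed per mouse and class, and edgeR's quasi-likelihood test was run with the mouse as a block over 8 mice, with Benjamini-Hochberg adjustment over all genes tested. A call needed an adjusted p under 0.05 together with a change of at least 1 on the log2 scale. Against Reln-positive GABAergic nuclei, 363 of 6379 genes were higher (5.69%) and 597 lower (9.36%). Against excitatory nuclei, 771 of 13718 genes were higher (5.62%) and 1629 lower (11.9%), of which 116 had 0 UMIs in Cajal-Retzius nuclei. Of 6372 genes tested in both, 178 were higher in both, 406 lower in both and 15 changed in opposite directions, and both comparisons share the Cajal-Retzius nuclei. Values are relative to the TMM scaling. Scaling by library size alone moved the median of all genes by 0.34 on the log2 scale in the excitatory comparison, where it gave 1314 higher and 1016 lower genes. In that comparison 32.1% of calls were upward with TMM and 56.4% with library size. In the GABAergic comparison the shift was 0.10, with 441 higher and 531 lower. DESeq2's size factors moved the excitatory median by 0.11, with 892 higher and 1404 lower. Among the 126 marker-free nuclei, 408 genes were higher and 890 lower against the GABAergic class, and 713 and 2484 against the excitatory class, where the median moved by -0.25. Of the 960 calls against the GABAergic class 817 were kept there in the same direction, and of the 2400 against the excitatory class 2005.

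**Figure D4:**
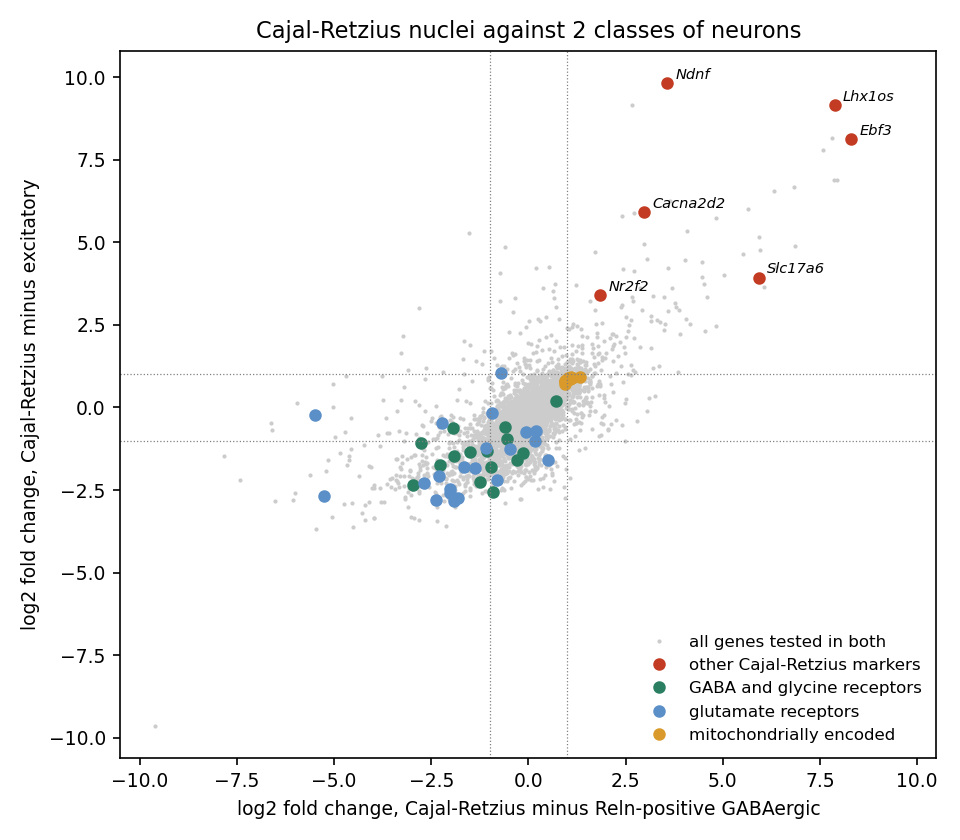
Log2 fold changes of Cajal-Retzius nuclei against Reln-positive GABAergic (x axis) and excitatory nuclei (y axis) for 6372 genes tested in both; each point is a gene, and dotted lines mark a log2 fold change of 1. Cajal-Retzius markers lie at the upper right, most receptor genes at the lower left, and mitochondrially encoded genes near 1 on both axes.

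Known Cajal-Retzius markers outside the rule were higher together. Of 15 such genes, 6 passed the filter on low counts against the GABAergic class and 6 were higher, with a median log2 fold change of 4.75, against a median of 0.00 over all genes. Against the excitatory class 12 were tested and 12 were higher, with a median of 5.07 against -0.20. Such genes could reach the filter through the class where they are high. Among the transcription factors, Ebf3, of the early B-cell factor family, had 146.2, 379.2 and 543.2 CPM and did not exceed 5.95 CPM in the GABAergic or 4.18 CPM in the excitatory class. Its log2 fold change was 8.31 (SE 0.35, adjusted p = 1.1e-13) and 8.12 (SE 0.45, adjusted p = 2.5e-08). Nhlh2, a neuronal basic helix-loop-helix factor, had 26.6 to 90.5 CPM and 0 UMIs in the GABAergic nuclei. The nuclear receptor gene Nr2f2 was higher by 1.84 and 3.40 on the log2 scale. Tbr1, a T-box factor of early cortical glutamatergic neurons, was higher by 2.28 against excitatory nuclei. Eomes, which marks Cajal-Retzius cells while they are young, had 1 UMI in 199 nuclei, and Ebf2 had 5.

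Ndnf, a secreted neuron-derived factor that also marks neurogliaform interneurons, separated the classes by degree. It had 705.4, 1792 and 2852 CPM in Cajal-Retzius nuclei, 108.8 to 153.8 CPM in the GABAergic class and at most 1.86 CPM in the excitatory class. The log2 fold change was 3.57 (SE 0.22) and 9.83 (SE 0.23). Ndnf was detected in 96.0% of Cajal-Retzius and 33.4% of GABAergic nuclei, against 1.19% of oligodendrocyte nuclei. Cacna2d2, an auxiliary calcium channel subunit, had 323.9 to 1344 CPM and was higher by 2.97 and 5.91. Calb2, which encodes the calcium buffer calretinin, had 4.44 to 90.5 CPM and was detected in 10.6% of the nuclei, and it was higher by 3.17 against excitatory nuclei (SE 0.41).

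Genes of the cortical hem and septum stayed detectable in these adult nuclei. Of 14 listed transcription factors, 8 could be tested against excitatory nuclei, and 6 were higher: Barhl2 by 7.78, Zic2 by 5.09, Zic4 by 4.42, Zic1 by 4.22, Emx2 by 3.55 and Lmx1a by 3.42 on the log2 scale. Genes this rare in excitatory nuclei could pass the filter on low counts through the Cajal-Retzius nuclei where they are high, so that the count is a description. In the marker-free nuclei 6 were tested and 4 were higher. Barhl2 had 8.87, 17.2 and 90.5 CPM and Emx2 24.7, 84.7 and 205.6 CPM. Both lay above every mouse of the excitatory class. Dbx1, a gene of progenitors at the septum and pallial border, Otx2 and Foxc1 had 0 UMIs in Cajal-Retzius nuclei, where 3 UMIs over the class would equal 3.33 CPM. None of the 14 passed the filter against the GABAergic class. Of the LIM homeodomain factors and cofactors outside the rule, 0 of 7 tested were higher and 2 lower against the GABAergic class. Against the excitatory class 1 of 12 was higher and 5 were lower. The shares of all genes tested were 5.69% and 5.62% higher and 9.36% and 11.9% lower. Ldb2 was lower in both comparisons, by 2.34 and 3.44, and Lmo2 was higher against excitatory nuclei by 2.07, while Lmo3 and Lmo4 were lower by 1.55 and 1.64.

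The genes with the highest fold changes included several with no classical place in the marker lists. Among genes with at least 100 UMIs in Cajal-Retzius nuclei, the 10 highest against the GABAergic class were Ebf3, Fam159b (7.85), the noncoding Gm31938 (7.81), Cd274 (7.58), Igsf9 (6.86), Eya2 (6.36), Lrig3 (6.31), Cxcl12 (6.07), Tmem163 (5.97) and Dach1 (5.92). With the same limit, the 10 highest against the excitatory class were Ndnf, Gm10475 (9.15), Gm31938 (8.15), Ebf3, Cd274 (7.81), Fam159b (6.88), Lrig3 (6.54), Gm29683 (6.25), Eln (6.01) and Cacna2d2. SEs of these 20 values lay between 0.17 and 0.45, and the largest adjusted p was 6.1e-08 from edgeR. Genes this rare in the other class could pass the filter on low counts through the Cajal-Retzius nuclei. The ranking is therefore a description. Fam159b, Igsf9 and Cxcl12 were not tested against the GABAergic class in the marker-free nuclei. Fam159b had 2 UMIs in the GABAergic nuclei, a pooled ratio of 459.1 with an exact interval of 124.5 to 3832.

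Cd274 encodes PD-L1, the ligand of an inhibitory receptor of T cells. It had 75.4, 180.1 and 407.4 CPM in Cajal-Retzius nuclei against at most 3.41 CPM in the GABAergic and 0.891 CPM in the excitatory class, with no overlap. Tmem163, a zinc transporter of synaptic vesicles, had 505.8, 1123 and 1333 CPM against 1.85 to 34.5 CPM in the GABAergic class. Dach1, a transcriptional cofactor, had 665.5 to 1876 CPM against 8.67 to 25.4 CPM. Eln, the gene of elastin, had 246.9, 637.9 and 1016 CPM against at most 7.72 CPM in the excitatory class, and Cajal-Retzius nuclei exceeded that class in 8 of 8 mice. All 4 genes were also called in the marker-free nuclei in the comparison given.

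The genes lowest against the GABAergic class included markers of interneurons. The noncoding gene Gm2516 had 0 UMIs in Cajal-Retzius nuclei and was at least 66.4-fold lower, with 3 UMIs over the class as the limit. Dlx6os1, a noncoding gene of the interneuron Dlx locus, had 1 UMI against 3704, a pooled ratio of 0.00194 (exact interval 4.9e-05 to 0.0108). Sst, the somatostatin gene, had 5 UMIs and was lower by 7.84, Col19a1, a collagen gene, by 7.43, and Erbb4, the neuregulin receptor gene, by 6.62. Of 10 listed interneuron markers 6 were tested and 6 were lower. Against the excitatory class, AC107452.3, Gm2516, Adgrd1, 5530401A14Rik and Hcrtr2 had 0 UMIs and were at least 3.51-, 3.66-, 3.32-, 3.40- and 3.16-fold lower. Hcrtr2 encodes an orexin receptor. Of 7 tested excitatory markers 5 were lower, among them Camk2a, Neurod2, Neurod6 and Prox1, and Tbr1 was higher. Gad1 and Gad2 chose the GABAergic class and Slc17a7 the excitatory class, so that lower markers of either class go with that choice. The counts of both marker lists are therefore a description.

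Genes of transmitter use put the nuclei on the glutamatergic side, with the vesicular transporter of subcortical and early neurons. Of 11 tested genes of transmitter and chloride transport, 3 were higher and 3 lower against the GABAergic class. Against the excitatory class 2 of 11 were higher and 3 lower. Among all genes tested, 5.69% and 5.62% were higher and 9.36% and 11.9% lower. Among marker-free nuclei 1 of 9 was higher and 5 lower against the GABAergic class, and 2 of 10 and 5 against the excitatory class. Slc17a6, which encodes VGLUT2, had 79.9, 192.4 and 430.0 CPM, against at most 10.7 CPM in the GABAergic and 4.93 to 17.3 CPM in the excitatory class. Its log2 fold change was 5.92 (SE 0.52, adjusted p = 2.3e-06) and 3.93 (SE 0.21). Slc17a6 was detected in 52.3% of Cajal-Retzius nuclei and in 0.576% of oligodendrocyte nuclei. Slc32a1, the vesicular GABA transporter gene, had 5 UMIs and was lower by 4.69 than in the GABAergic class, which Gad1 and Gad2 chose. Slc17a7 chose the excitatory class. Against the GABAergic class it was called higher by 1.13, a call kept under 11 of 16 alternatives. It rests on the 33 nuclei named above, since the marker-free nuclei hold 0 UMIs of Slc17a7 by their choice.

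Slc12a5 and Slc12a2 encode the chloride exporter KCC2 and importer NKCC1, whose balance sets whether GABA inhibits or excites a neuron. Slc12a5 had 24.7, 47.1 and 181.9 CPM in Cajal-Retzius nuclei, 127.6 to 203.8 CPM in the GABAergic class and 149.2 to 196.2 CPM in the excitatory class. It was lower by 1.13 (SE 0.28, adjusted p = 0.0047) and by 1.51 (SE 0.20). The ranges overlapped in 1 mouse, the first WT, and in the marker-free nuclei the differences were larger, at -2.77 and -3.27. Slc12a2 had 17.7 to 99.4 CPM and was not called in either comparison (log2 fold changes -0.37 and -0.39). In the marker-free nuclei Slc12a2 was called lower in both, by 2.24 against the excitatory class.

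Receptor genes were mostly lower. Of 15 tested GABA and glycine receptor genes, 8 were lower and 0 higher against the GABAergic class, with a median log2 fold change of -1.07. Against excitatory nuclei 11 of 17 were lower and 0 higher, with a median of -1.37. The medians over all genes tested were 0.00 and -0.20, and the shares of all genes called lower were 9.36% and 11.9%. With library size alone 7 and 8 were lower. Gabra3, Gabrb1, Gabrb2, Gabrd and Gabbr2 were among those lower in both. Gabra3, an α subunit gene, had 0 to 17.7 CPM (8 UMIs) against 54.9 to 83.5 CPM in the GABAergic and 27.4 to 44.2 CPM in the excitatory class, with no overlap, and was lower by 2.96 and 2.33. Glrb, the glycine receptor β subunit, was not called, at 0.72 and 0.18.

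Of 21 tested glutamate receptor genes, 13 were lower and 0 higher against the GABAergic class (median -1.65), and against the excitatory class 15 of 22 were lower and 1 higher (median -1.69). Grin2b, an NMDA receptor subunit, had 15.8, 350.9 and 1185 CPM, against 1282 to 1587 CPM in the GABAergic and 1987 to 2468 CPM in the excitatory class. Grin2b was detected in 22.6% of Cajal-Retzius and 18.9% of oligodendrocyte nuclei, and in 99.7% of the GABAergic and 99.6% of the excitatory nuclei, which were deeper. Its log2 fold changes were -1.92 (SE 0.52) and -2.83 (SE 0.62), and -4.81 and -5.90 in the marker-free nuclei. Grin2a (-1.82 and -2.74), Grm5 (-2.38 and -2.80), Gria3 (-2.02 and -2.59) and Grik2 (-2.70 and -2.27) were lower in both. Gria4, an AMPA receptor subunit, was the exception, higher than in excitatory nuclei by 1.04 (SE 0.16) and at 502.9, 813.0 and 1111 CPM. Gria1 and Gria2 were detected in 89.4% and 92.0% of the nuclei. Gria2 had 769.5 to 1403 CPM and was not called against the GABAergic class, at 0.17, while it was lower than in excitatory nuclei by 1.02, a call kept under 7 of 17 alternatives.

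**Figure D5:**
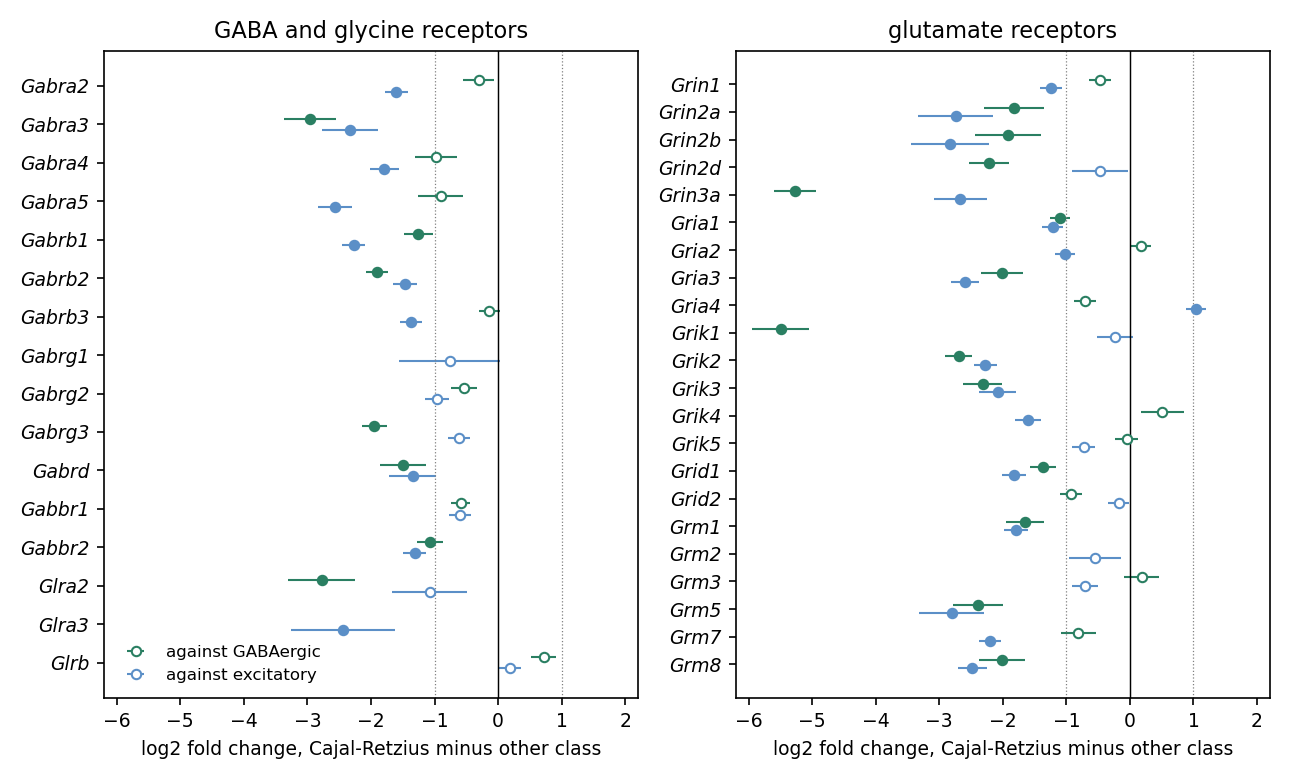
Log2 fold changes of selected receptor genes in Cajal-Retzius nuclei against the GABAergic (green) and excitatory class (blue) over 8 mice; bars are SEs, filled points passed the call, and dotted lines mark a log2 fold change of 1. Filled points lie below -1 except Gria4 against the excitatory class, at 1.04.

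In the Reelin pathway, the nuclei that make the ligand had lower levels of Vldlr and Dab1 than both neuronal classes. Of 20 tested genes 1 was higher and 3 lower against the GABAergic class, and of 26 against the excitatory class 1 and 4. Over all genes tested, 5.69% were higher and 9.36% lower against the GABAergic class, and 5.62% and 11.9% against the excitatory class. The list medians were 0.10 and -0.13 on the log2 scale, against 0.00 and -0.20 over all genes. Among marker-free nuclei 2 of 17 were higher and 3 lower, and 1 of 26 and 7. Vldlr, a Reelin receptor gene, had 0, 11.4 and 24.7 CPM in Cajal-Retzius nuclei, 33.8 to 55.6 CPM in the GABAergic and 24.5 to 33.6 CPM in the excitatory class. It was lower by 1.93 (SE 0.42, adjusted p = 0.0011) and by 1.58 (SE 0.42, adjusted p = 0.001). The second Reelin receptor gene, Lrp8, was not called, at -0.32 and -0.04. Dab1, the adaptor, had 110.7, 525.7 and 1517 CPM against 914.8 to 2178 CPM in the GABAergic and 1988 to 2637 CPM in the excitatory class, and it was lower by 1.63 and 2.52. In the marker-free nuclei Dab1 was lower by 3.40 and 4.44. Nectin1, an adhesion molecule of Cajal-Retzius cells that pairs with Nectin3 on migrating neurons, was higher by 1.80 (SE 0.22) and 1.36 (SE 0.22). It had 70.2, 100.6 and 172.8 CPM, above each mouse of both classes. Adamts3 and Plat, whose proteases cleave Reelin, were lower than in excitatory nuclei by 1.61 and 1.37. Limk1 was lower than in the GABAergic class by 1.86.

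Guidance genes differed in both directions. Of 21 tested, 3 were higher and 8 lower against the GABAergic class, and of 26 against the excitatory class 6 and 15. For all genes tested, the shares were 5.69% and 5.62% higher and 9.36% and 11.9% lower. Among marker-free nuclei 3 of 19 were higher and 12 lower, and 6 of 26 and 17. Robo2, a Slit receptor gene, had 1442, 2676 and 3430 CPM and was higher by 1.51 (SE 0.19) and 2.13 (SE 0.16), while Robo1 was lower than in the GABAergic class by 1.20. Unc5b, a netrin receptor gene, was higher by 2.98 and 4.96, whereas its relatives Unc5c and Unc5d were lower, by 3.63 and 4.06 against the GABAergic class and 2.31 and 1.81 against the excitatory class.

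Cxcl12 and Cxcr4 encode a chemokine and its receptor, which hold Cajal-Retzius cells under the meninges during migration. Cxcl12 had 31.1, 190.4 and 300.5 CPM in the WT mice, 36.0, 116.9 and 117.9 CPM in GKO, 370.3 CPM in J20;WT and 724.2 CPM in J20;GKO. WT mouse 1 and GKO mouse 1, which share a date, were lowest, and each still exceeded every mouse of both comparison classes, whose highest values were 5.11 and 14.4 CPM. Its log2 fold change was 6.07 (SE 0.34) and 3.64 (SE 0.77, adjusted p = 0.011). Cxcr4 had 4.44, 50.3 and 197.5 CPM, with the same 2 mice lowest, and was higher than in excitatory nuclei by 6.78 (SE 0.40).

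Voltage-gated channel genes were more often called lower than higher. Counts of maturation genes against the excitatory class moved with the scaling. Of 26 tested channel genes 2 were higher and 7 lower against the GABAergic class, and of 30 against the excitatory class 3 and 12. Their medians were -0.61 and -0.84 on the log2 scale. Of all genes tested, 5.69% and 5.62% were called higher and 9.36% and 11.9% lower. With library size alone 4 channel genes were higher in each comparison, and 7 and 8 lower. Among marker-free nuclei 4 of 25 were higher and 10 lower, and 3 of 30 and 15. Kcnh7, an ERG-type potassium channel gene, had 2017, 3553 and 4543 CPM, was detected in 199 of 199 nuclei, and was higher by 2.17 (SE 0.19) and 1.86 (SE 0.16). Scn1a, a sodium channel gene, was lower by 2.08 and 1.48. Of 8 tested maturation genes 0 were higher and 2 lower against the GABAergic class, and of 10 against the excitatory class 1 and 3. The latter counts were 2 and 1 with library size alone, and 1 and 6 in the marker-free nuclei. Rbfox3, which encodes the neuronal nuclear antigen NeuN, had 0, 109.9 and 350.5 CPM and was lower by 1.38 (SE 0.28) and 2.27 (SE 0.20). NeuN transcripts were detected in 16.6% of Cajal-Retzius nuclei against 94.0% and 97.9% of the neuronal classes and 6.67% of oligodendrocyte nuclei. In the marker-free nuclei Rbfox3 was lower by 4.08 and 5.14. Map2 was not called, at 0.01 and -0.31, and was detected in 83.4% of the nuclei. Dcx, a marker of immature neurons, was lower than in the GABAergic class by 2.45.

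Of the p53 family and apoptosis genes, 7 and 14 were tested. Bcl2, which protects from apoptosis, had 13 UMIs and was lower by 2.03 (SE 0.43, adjusted p = 0.00089) and 1.04 (SE 0.41, adjusted p = 0.046), and the second call was kept under 4 of 17 alternatives. Trp63, the third member of the family, had 2 UMIs, and Cdkn1a and Pmaip1, targets of p53, had 0. Of the mitochondrially encoded genes, 7 of 11 tested were higher and 0 lower against the GABAergic class (median 1.02), and 1 of 13 was higher and 0 lower against the excitatory class (median 0.88). The shares of all genes tested were 5.69% and 5.62% higher and 9.36% and 11.9% lower. The values lay near the limit of 1, and the number called higher moved with the scaling, from 3 and 6 with DESeq2's size factors to 11 and 12 with library size alone. It was 11 and 3 in the marker-free nuclei. Over all alternatives it ranged from 2 to 11 and from 0 to 12. The share of mitochondrial UMIs and the depth of the nuclei moved with this result, and their part in it was not tested.

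Promoters of the 178 genes higher in both comparisons were searched for the same motifs. RefSeq windows, from 250 bases before to 50 after a start, were matched for 137 of them and for 4858 of the 6372 genes tested in both. TAATTA was in a window of 9 of the 137 (6.57%) and of 3.33% of the tested genes. The early B-cell factor core was in 14 (10.2%) and 9.12%, the Sp1 core in 73.7% and 71.9%, the CCAAT box in 42.3% and 42.4%, and the TATA box core in 9.49% and 8.30%. These are shares of letters in fixed windows and no factor's binding was measured.

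The third question was whether Cajal-Retzius nuclei of GKO mice differed from those of WT mice in gene expression. Gsap transcripts were present in every library. Among the remaining nuclei it had 22.6 ± 0.341 CPM (SD, n = 3) in WT, where the lowest mouse had 22.4 CPM, and 19.8, 21.9 and 22.1 CPM in the libraries labelled GKO, so that the groups lay close without overlap. Counts of a gene with some exons deleted can come from the exons that remain, so that this check tells nothing of the deletion, and directions given for GKO rest on the labels. In Cajal-Retzius nuclei Gsap had 6 UMIs over 8 mice and could not be tested by genotype. It was detected in 3.02% of these nuclei, and against excitatory nuclei its log2 fold change was -0.32 (SE 0.62, adjusted p = 0.77).

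Of 2866 genes tested between 3 GKO and 3 WT mice by edgeR's quasi-likelihood test, 0 passed an adjusted p of 0.05 with a log2 fold change over 0.3 (0.0%). The smallest adjusted p was 1.00. At an unadjusted p under 0.05 there were 36 genes, 17 of them higher in GKO. DESeq2 gave 7 such genes and also 0 calls. In simulated counts of this depth and spread, 5.5% of genes with a simulated log2 change of 1 were recovered and 80.5% with a change of 2, so that changes of 1 were mostly not detectable with 19 to 39 nuclei per mouse.

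The genes with the smallest unadjusted p were Gm28153, Camk2d and Fbxl7. Camk2d, a calcium and calmodulin dependent kinase gene, had 244.0, 180.4 and 142.3 CPM in WT and 43.2, 64.3 and 92.6 CPM in GKO, with no overlap. The mean was 189 ± 51.4 (SD, n = 3) and 66.7 ± 24.8 (SD, n = 3), and the log2 fold change was -1.58 (SE 0.38, adjusted p = 1.00 from edgeR). Gm28153 had a log2 fold change of -1.93 and Fbxl7, an F-box protein gene, of 1.12, at the same adjusted p from edgeR. Each of the 3 fails the correction over all genes. In J20;WT and J20;GKO, Camk2d had 148.1 and 67.9 CPM, Gm28153 74.1 and 158.4 CPM, and Fbxl7 148.1 and 90.5 CPM, so that the order of the J20 pair matched the other mice for Camk2d and was opposite for Gm28153 and Fbxl7.

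The genes that chose the nuclei are given by genotype as a description. Reln, Trp73, Lhx1 and Lhx5 were among the 2866 genes tested between genotypes. Of these 4 genes 0 were called, and 1 had an unadjusted p under 0.05 from edgeR. Reln had 5797 ± 1795 CPM (SD, n = 3) in WT and 7834 ± 4072 (SD, n = 3) in GKO, where the first GKO mouse, at 12531 CPM, was above the other GKO mice at 5304 and 5667 CPM. Trp73 had 826 ± 288 and 782 ± 101 CPM. Lhx5 had 57.7, 110.3 and 94.9 CPM in WT and 122.5, 163.7 and 202.1 CPM in GKO, and it was not called. The J20;WT and J20;GKO libraries had 98.8 and 90.5 CPM of Lhx5. Of markers outside the rule, Ndnf, Ebf3 and Slc17a6 had log2 fold changes of -0.27, 0.07 and 0.03, with SEs from 0.40 to 0.46, and none of them was called. Among mitochondrially encoded genes mt-Cytb had the smallest unadjusted p, 0.021 from edgeR, with a log2 fold change of 0.78 and an adjusted p of 1.00. The median UMIs per nucleus were 3454 ± 412 in WT and 3132 ± 320 in GKO (SD, n = 3 each, exact permutation p = 0.4).

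In the APP family and γ-secretase list, 0 of 4 tested genes changed by genotype. App had 757 ± 102 CPM (SD, n = 3) in WT and 727 ± 56.2 CPM (SD, n = 3) in GKO, a log2 fold change of -0.05 (SE 0.26, adjusted p = 1.00 from edgeR). In J20;WT and J20;GKO it had 1210 CPM (exact Poisson 95% interval 895.0 to 1599) and 1177 CPM (878.9 to 1543), above each of the 6 mice without the transgene, whose highest value was 869.9 CPM. Whether reads of the human transgene were counted as mouse App was not tested. Against the GABAergic and excitatory classes App was not called, at 0.26 and 0.22. Bin1, an Alzheimer's disease risk gene, was higher than in the GABAergic class by 1.26 (SE 0.18), and Sorl1, a sorting receptor of APP, was lower than in excitatory nuclei by 1.74 (SE 0.21), as was Aph1b, a γ-secretase subunit gene, by 1.53.

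The J20 pair held 13 and 12 Cajal-Retzius nuclei from 1 mouse each, differs in date, and was not tested. Reln had 7950 CPM in J20;WT (exact Poisson 95% interval 7105 to 8868) and 7763 CPM in J20;GKO (6963 to 8629). Trp73 had 1037 (747.4 to 1402) and 1335 CPM (1016 to 1722), Ndnf 2691 (2210 to 3246) and 2852 CPM (2376 to 3395), and Ebf3 543.2 (340.4 to 822.4) and 430.0 CPM (258.9 to 671.5). These intervals overlap for each gene and cover counting error only. The summed level of the 15 other Cajal-Retzius markers was 5975 and 5930 CPM in J20;WT and J20;GKO, and 1641 to 5409 CPM in the WT and GKO mice. In the marker-free nuclei these sums were 6202 and 6373 CPM against 4207 to 5405 CPM.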

How the data were processed

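Nuclei from the hippocampus of 8 mice were sequenced on the 10X Genomics platform. Per the file headers and the submitters' processing notes, the authors aligned reads to mm10 with Cell Ranger 3.0.2, and the deposited values are raw UMI counts per gene and nucleus, with no normalization; the annotation and counting strand are not given in the sources used here. The authors' filter (mitochondrial share at most 5%, 200 to 7500 genes) was applied here. Counts were summed per mouse and class with numpy 2.4.6, scipy 1.17.1 and pandas 2.3.3, and tested with edgeR 4.0.16 in R 4.3.3 (TMM, filterByExpr, robust quasi-likelihood fit, Benjamini-Hochberg adjustment), with DESeq2 1.42.0 as an alternative. Mice were the replicates. Genes that chose the classes were left out of class comparisons. Genotype thresholds (adjusted p 0.05, log2 fold change 0.3) follow the study. The members, comparison classes and 24 gene lists were chosen with earlier results of these data known. Named genes are those of the lists that passed in both class comparisons or changed most in their list, the 10 highest and 5 lowest fold changes per class comparison among genes with at least 100 UMIs, the 3 smallest genotype p-values, Gsap and App; single further list members are named where a count is small. The test was checked on simulated counts with 200 changed genes. At a log2 change of 1, 61.5% of them were recovered against the GABAergic and 30.5% against the excitatory class. Recovery was counted with the genotype thresholds, so that the limit of 0.3 applied here too. Recovery under the stricter class limit of 1 was not tested. Doublets were not removed. Positions are from GENCODE vM21 (GRCm38). Alternatives covered scaling, filter, member limits, single mice, the replicate number and dates. P-values measure the spread between mice. A few listed genes are not reported here.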

Additional observations from a re-analysis of the deposited data

How the results depend on the processing

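Under the alternatives run, 0 of 87 called results of list and named genes against the GABAergic class and 0 of 126 against the excitatory class reversed. Of 1457 recomputed values against the GABAergic class 1384 kept their call and 73 lost it, and of 2133 against the excitatory class 2003 and 130. The counts that moved by over 1.5 times were these. Without a filter on low counts, 699 genes were higher and 1308 lower against the GABAergic class, where 21310 instead of 6379 genes were tested. With library size only, 1314 were higher and 1016 lower against the excitatory class. In Cajal-Retzius nuclei without Slc17a7 or other-class markers, an alternative chosen after seeing the data, 2484 were lower against that class. Leaving out 1 mouse gave 350 to 398 higher and 573 to 670 lower genes against the GABAergic class, and 723 to 812 and 1379 to 1914 against the excitatory class. Without the mouse as a block, the counts were 356 and 575, and 738 and 1533. Between GKO and WT the count of genes was 0 under 15 alternatives, with a replicate block and a batch term among them. The replicate numbers of WT and GKO mice were not taken to pair them, since the deviations of same-numbered mice in Cajal-Retzius nuclei correlated at 0.03, 0.06 and 0.10 across genes, and not every mouse was closest to its own number. Over all kept nuclei these correlations were 0.73, 0.35 and 0.39, where the mice numbered 1 also share a date. The replicate block changed no call between genotypes. With the replicate block, the difference in share was 0.149 points (exact sign-flip permutation p = 0.5, smallest possible 0.25). The difference in share was 0.0566 points with stricter limits (Reln at least 10, factors at least 4, exact permutation p = 0.4), 0.219 with looser ones (p = 0.1 by the exact permutation test, its smallest), 0.136 among nuclei with at least 1000 UMIs and 0.0892 in the marker-free nuclei, and 0.107 to 0.228 without 1 mouse. In simulated counts with 19 to 39 nuclei per mouse, 5.5% of genotype changes of 1 and 80.5% of changes of 2 on the log2 scale were recovered.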
